A study of Mus musculus with 24 samples.

Results

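LINE-1 (L1) elements of 5000 bp or more were examined in nascent RNA of mouse embryonic stem cells. They are the loci of class LINE and family L1 in the authors' deposited repeat table whose end minus start is at least 5000 bp. The table lists 15287 such copies among 4929385 repeat loci. A value other than 0 in any deposited column was present for 14693 of them, and these are the copies described here. The other 594 were listed at 0 in every column. A further 338643 shorter L1 loci had reads.

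E14TG2a cells, an established mouse embryonic stem cell line, were of 3 genotypes: Alkbh5 KO, Alkbh5 del-cIDR and WT. By the study's title and the genotype name, del-cIDR lacks an intrinsically disordered region of ALKBH5. Each genotype was labelled with 1 mM EU (5-ethynyl uridine, a uridine analog built into RNA as it is made) for 10, 20, 40 or 60 min, with 2 libraries per genotype and time, 24 in all. All cells, WT included, grew with LIF, 1 µM PD0325901 and 3 µM CHIR99021, inhibitors of MEK and GSK3. The labels name no clone, so each genotype is taken as 1 line grown in 8 dishes, and the p-values cover no more than the spread between dishes of a line. The deposited columns carry the prefixes ko, ki and wt, and ki was taken as del-cIDR by elimination.

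L1 elements copy themselves through an RNA intermediate. A full-length mouse copy begins with a promoter built of tandem repeats called monomers, followed by a pair of open reading frames and a 3′ end, and most genomic copies are shortened at the 5′ end. In mouse embryonic stem cells, L1 RNA is transcribed, is held down by DNA methylation and histone H3 lysine 9 methylation, and carries m6A, the N6-methyl mark on adenosine. ALKBH5 is an enzyme that removes m6A, and YTHDC1 is a nuclear protein that binds it.

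The deposited IDs name class, family and position but no L1 subfamily, strand or reading frame, so length is the only sign that a copy is near full length. The median length was 6230 bp, and 61.4% of the copies were from 6000 to under 6500 bp. The shortest had 5000 bp and the longest 16160 bp. Just inside the limit lay chrX:30265296-30270296 (5000 bp, mean level 0.191; coordinates here are on build GRCm39) and chr2:127037611-127042612 (5001 bp, mean level 260). Just outside it lay chr7:53997626-54002625 and chrX:76254434-76259433 (each 1 bp short of the limit, mean levels 12.2 and 2.55).

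A level is the number of reads of a copy after scaling each library to 11714 spike-in reads, the spike-in being EU-labelled Drosophila RNA added in equal amount to each sample. Libraries held 3654850 to 22123265 reads over repeats, 349051 to 1368235 of them in the L1 copies, and 6037 to 23382 spike-in reads. Between 11233 and 12918 copies had reads in a library. The 9 stem cell marker genes had median levels of 2087 to 14029. Of 10 markers of other cells, Cdx2 had a median of 0 and the others had medians of at most 411 (Tubb3). As these are bulk samples, fewer cells making an RNA and less of it per cell cannot be told apart.

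Alkbh5, the targeted gene, had a median level of 1063 in KO (565 to 2374), 1871 in del-cIDR (181 to 2734) and 1490 in WT (374 to 3663), over 8 libraries each. The ranges of the 3 genotypes overlap. Relative to each library's median tested gene, the log2 difference from WT was -0.60 ± 0.06 in KO (limma adjusted p = 1.22e-05) and -0.46 ± 0.06 in del-cIDR (limma adjusted p = 0.000212). Without that centring, on the spike-in scale, both were at -0.29 and did not pass. The sources used here do not give which part of the gene was removed, and reads over it remained in the KO libraries.

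Reads were spread over very many copies. Of the 14693, 9666 had reads in all 24 libraries and 352 in a single library. The mean level had a median of 28.1, with 0.546 at the 10th percentile, 162 at the 90th and 3041 at the top. The summed level was not carried by a few loci: 1884 copies held 50% of it, the 10 highest copies 2.36% and the 100 highest 9.76%.

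Level per length was higher in longer copies. The summed level per kb was 5.18 for copies of 5000 to under 6000 bp, 7.85 for those of 6000 to under 6500 bp and 20.1 for those of 6500 bp or more. Over all 14693 copies it was 10.3 per kb, beside 22.9 per kb over all repeat loci with reads. L1 loci of 1000 to under 5000 bp had 5.54, those under 1000 bp 14.3, and ERVK retrovirus-like loci of 5000 bp or more 4.19 per kb. How reads that fit several near-identical copies were assigned is not given in the sources used here, so a level may be shared among copies.

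The copies with the highest level per kb had 343 to 507 reads per kb. They were chr8:20558466-20564468 (507 per kb), chr6:141523763-141530208 (401), chr4:145167043-145172711 (373), chr10:121917790-121924060 (345) and chr2:20795469-20801514 (343). Each of these 5 had an unclear split of reads between both libraries of WT at 60 min, where the group counted as 1 value. At chr6:141523763-141530208 the levels at 40 min were 1248 and 1295 in KO, 4355 and 6678 in del-cIDR, and 2957 and 4458 in WT. KO was the lowest genotype at that copy at every labelling time, with a log2 difference from WT of -1.48 ± 0.13 relative to the median locus (limma adjusted p = 7.38e-06). Repeats within 25 kb of it were at -1.47.

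The copies took 4.77 to 9.74% of all repeat reads of a library, with a median of 6.40% over the 24. By labelling time, from 10 min up, the share in KO averaged 6.84 ± 1.5, 6.74 ± 1.82, 6.97 ± 0.923 and 6.60 ± 0.177% (SD over 2 libraries). In del-cIDR it averaged 9.65 ± 0.136, 4.98 ± 0.297, 5.76 ± 0.091 and 6.17 ± 0.450% at the same times. In WT it averaged 7.67 ± 2.5, 6.23 ± 0.484, 6.07 ± 0.345 and 6.78 ± 0.172%. The WT pair at 10 min was 5.91 and 9.44%, a wider gap than in any other pair.

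The share was higher in the libraries with the fewest repeat reads. The 5 libraries with the fewest repeat reads (KO 10 min B and 20 min B, del-cIDR 10 min A and B, WT 10 min B, where A is the library of a pair with more spike-in reads) gave 7.90 to 9.74%, and the other 19 gave 4.77 to 7.62%. In the same 5 libraries loci of the Y chromosome other than L1 took 0.487 to 0.616% of repeat reads, against 0.336 to 0.529% in the others, and satellites 0.743 to 0.992% against 0.677 to 0.866%. The part of library depth in the L1 share was not tested.

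**Figure D1:**
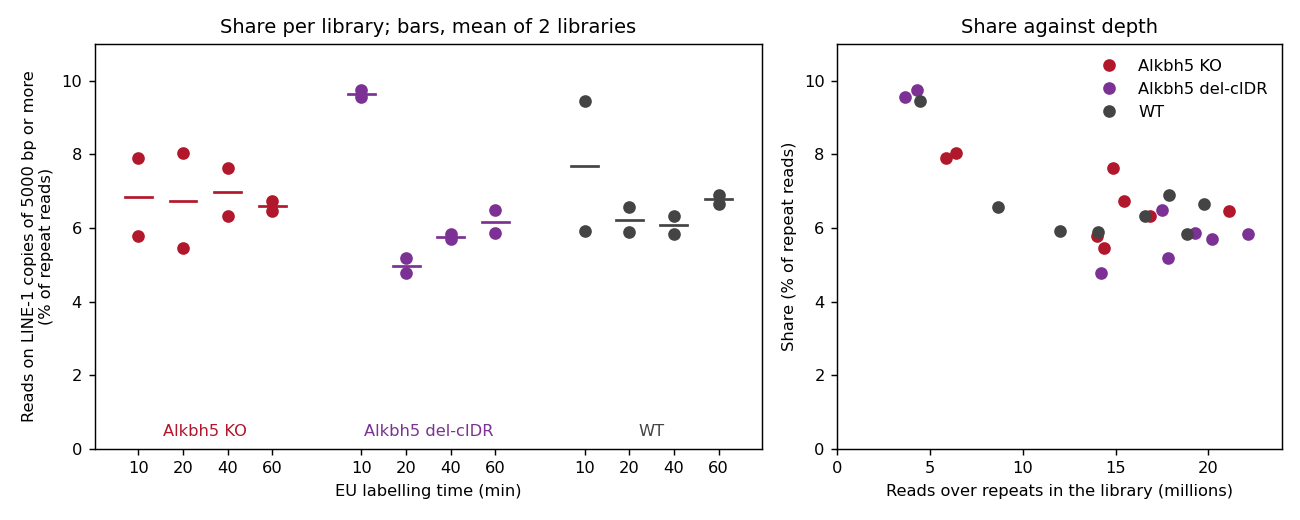
Left, the percentage of repeat reads in L1 copies of 5000 bp or more in each library (points) by genotype and labelling time, with the mean of each pair as a bar line. Right, the same percentage against the repeat reads of the library, where the 5 libraries with the fewest reads lie at 7.90% or above and the other 19 at 7.62% or below.

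Set to each library's median tested locus, the median copy lay near the median locus on average over the 4 labelling times, but its differences between genotypes ran in both directions with time. Loci were tested if their mean level was at least 10 and above 0 in at least 6 libraries, which 9601 of the 14693 copies (65.3%) and 306027 of the 2172946 repeat loci with reads (14.1%) met. The median tested copy differed by -0.04 on the log2(level + 1) scale in KO relative to WT, where the median of all tested loci was -0.03. By time the KO medians were -0.26, 0.07, 0.21 and -0.09 at 10, 20, 40 and 60 min. In del-cIDR relative to WT the median was -0.07, where all loci had -0.02, and by time 0.36, -0.37, -0.10 and -0.17. In del-cIDR relative to KO it was -0.06, where all loci had 0.03, and by time 0.61, -0.45, -0.33 and -0.10. Without the 10 min libraries the median copy was at 0.05 in KO and -0.22 in del-cIDR relative to WT, and at -0.29 in del-cIDR relative to KO, where all loci had -0.02, 0.01 and 0.04. Without library B of WT at 10 min the medians relative to WT were 0.05 in KO and 0.03 in del-cIDR.

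On the spike-in scale, which keeps differences in the total amount of captured RNA, the summed level of the copies was higher in KO than in WT by a log2 difference of 0.33 (0.56, 0.39, 0.13 and 0.24 at 10, 20, 40 and 60 min). In del-cIDR the difference was 0.10, with -0.28, 0.43, 0.32 and -0.06 by time. As a share of repeat reads the corresponding differences were 0.03 and -0.04. A score over chosen copies carries no p here. The spike-in scale raised the median of all tested loci to 0.29 in KO and 0.14 in del-cIDR.

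In KO relative to WT, 78 copies were higher and 144 lower (limma, Benjamini-Hochberg adjusted p under 0.05 over all 306027 loci). That is 2.31% of the tested copies, beside 4.85% of all tested loci (1.86% higher, 2.99% lower), and this difference in percentage was not tested. By mean level, 2.20% of the L1 copies and 4.07% of the other loci were called at 10 to 30, 2.19% and 5.93% at 30 to 100, 1.95% and 9.46% at 100 to 300, and 8.58% and 12.7% at 300 or more. With no filter on low levels the order of L1 copies and all loci turned, at 0.150% of the copies and 0.0747% of all loci. By length, the percentage called was 5.65% for copies of 5000 to under 6000 bp, 2.11% for those of 6000 to under 6500 bp and 1.68% for those of 6500 bp or more. Differences beyond a factor of 2 were reached by 11 called copies upwards and 66 downwards, of 9601 tested. Among all 306027 tested loci they were reached by 1305 upwards and 4390 downwards. The split of directions depends on the scale: on the spike-in scale 227 copies were higher and 46 lower.

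The deepest fall in KO was at chr7:26182605-26188527, a copy of 5922 bp. In libraries A and B of KO its levels by labelling time, from 10 min up, were 2.2 and 0, 2.7 and 0, 4.4 and 4.4, and 7.2 and 0. In del-cIDR they were 0 and 0, 13.5 and 13.4, 21.5 and 54.0, and 16.4 and 19.4. In WT they were 19 and 10.4, 21.4 and 23.6, 43.2 and 66.8, and 44.4 and 58.4. The KO pair lay below the WT pair without overlap at all 4 times, and the del-cIDR pair did so at 10, 20 and 60 min. The log2 difference was -3.87 ± 0.38 (SE) in KO (limma adjusted p = 1.37e-05) and -1.84 ± 0.38 in del-cIDR (limma adjusted p = 0.0162). The del-cIDR call was lost without the 10 min libraries (-1.34, adjusted p = 0.126). Other repeats within 25 kb of the copy moved with it, by -3.44 in KO and -1.37 in del-cIDR.

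A pair of copies on chromosome 2 that lie near each other fell together in KO. At chr2:37115988-37122148 the KO levels were 10.9 and 9.8, 13.7 and 7.8, 68.0 and 50.6, and 161 and 167 at 10, 20, 40 and 60 min. The WT levels were 39.1 and 30, 61.7 and 36.9, 248 and 390, and 476 and 528. KO lay below WT without overlap at all 4 times, with a log2 difference of -2.25 ± 0.23 (limma adjusted p = 1.49e-05). Its neighbour at chr2:37083422-37089310 differed by -2.66 ± 0.17 (limma adjusted p = 1.68e-07). In del-cIDR the differences were -0.23 and -0.35, and neither passed. Repeats within 25 kb of the copies were at -1.95 and -2.30 in KO.

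For the other copies with the deepest falls in KO, the log2 differences were -2.86 at chr13:61336591-61342520, -2.39 at chr2:16095838-16101942, -2.31 at chr7:86687580-86693705 and -2.14 at chr16:7722386-7729791. They were -2.09 at chr10:15110720-15115989, -2.0 at chr19:8475462-8481959 and -1.95 at chr4:147584573-147590666. Relative to the median locus, the KO and WT libraries did not overlap at any of the 4 times at these copies. At chr19:8475462-8481959 the repeats nearby moved by -0.28, while at chr16:7722386-7729791 they moved by -2.19.

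The largest rise in KO was at chr6:107880568-107886753. KO levels there were 105 and 121, 133 and 153, 324 and 323, and 529 and 476 at 10, 20, 40 and 60 min. WT levels were 33.6 and 10.4, 35.7 and 20.5, 94.3 and 118, and 120 and 135. All 4 KO pairs lay above the WT pairs, with a log2 difference of 1.79 ± 0.18 (limma adjusted p = 1.65e-05). The same copy was lower in del-cIDR than in WT, with a log2 difference of -1.05 ± 0.18 (limma adjusted p = 0.00425). Its del-cIDR levels were 2.9 and 3.9 at 10 min and 102 and 126 at 60 min. Repeats within 25 kb of it were at 1.53 in KO and -0.46 in del-cIDR.

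A second copy with opposite signs was chr12:87543919-87550090. Its levels at 60 min were 226 and 159 in KO, 17.3 and 36.0 in del-cIDR, and 87.9 and 89.3 in WT. Relative to the median locus, neither KO nor del-cIDR overlapped WT at any labelling time there. The log2 difference from WT was 1.05 ± 0.18 in KO (limma adjusted p = 0.00265) and -1.93 ± 0.18 in del-cIDR (limma adjusted p = 2.59e-05). At chr5:68332907-68339040 the differences were 1.03 in KO and -0.92 in del-cIDR, and both passed. Repeats within 25 kb had the same signs: 0.84 in KO and -1.66 in del-cIDR at the chr12 copy, and 0.48 and -0.83 at the chr5 copy.

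The remaining largest rises in KO ran between log2 differences of 1.00 and 1.49. They lay at chr4:58701902-58708110 (1.49), chr15:24435572-24441691 (1.18), chr10:47675534-47681937 (1.15), chr6:66545749-66551773 (1.14), chr8:49599740-49605903 (1.10), chr11:22718251-22724224 (1.02) and chrX:138056604-138062808 (1.00). The call at chr6:66545749-66551773 was weak, with a limma adjusted p of 0.040, and it was lost when any of 16 of the 24 libraries was left out. At chr10:47675534-47681937 the difference varied with time, at 1.73, 0.56, 2.23 and 0.08 from 10 to 60 min. Its levels at 60 min overlapped, at 365 and 329 in KO and 210 and 332 in WT. The rise at chr15:24435572-24441691 came with a difference of 0.13 in the repeats around it. Around the others of these copies, where flanks could be scored, the difference ran from 0.50 to 1.47.

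**Figure D2:**
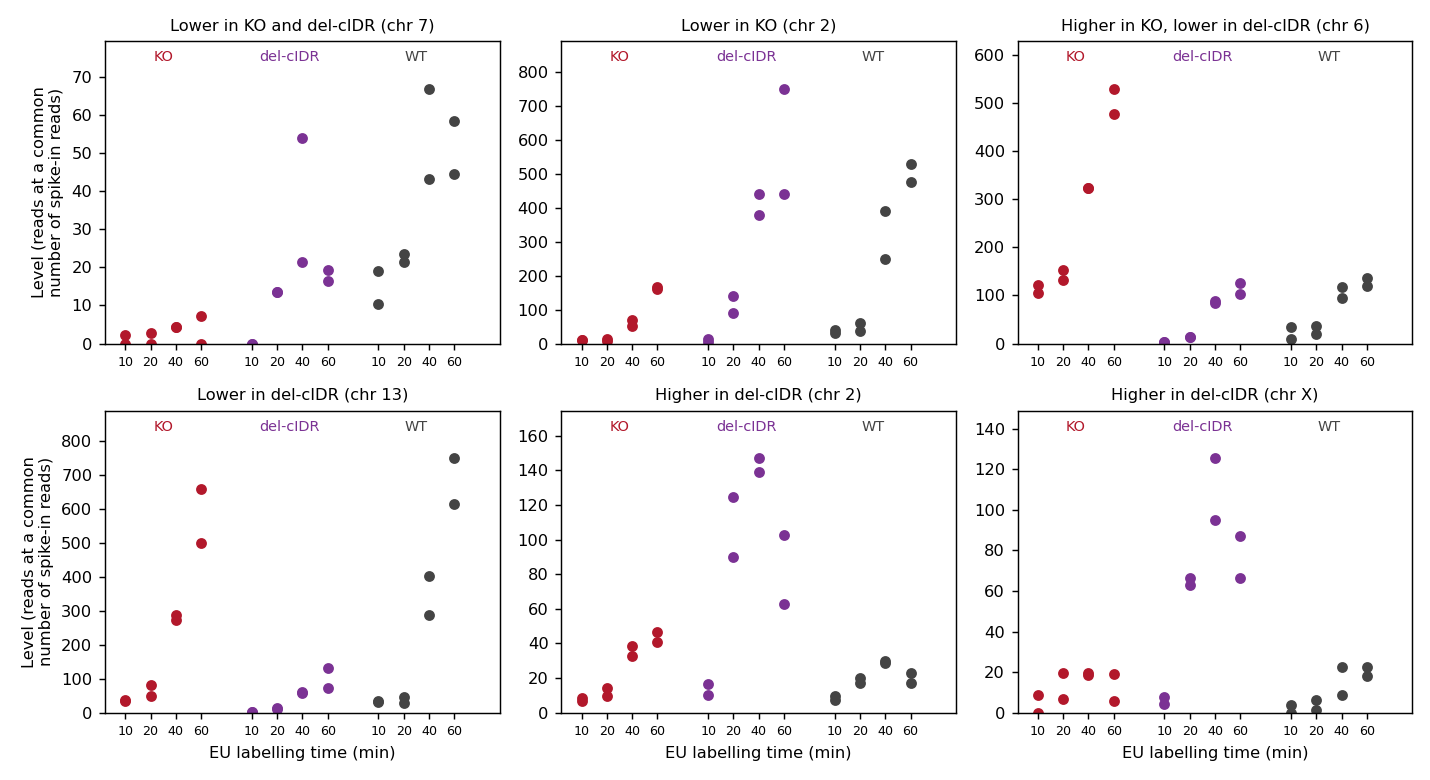
Levels (reads scaled to a common spike-in count, linear axes) in each library of 6 L1 copies, with 1 panel per copy, the genotypes in colour, the labelling times along the horizontal axis and both libraries of a group as points. The 6 were picked from the named copies after their values were seen. KO lies below WT at the chr7 copy and at chr2:37115988-37122148 and above it at the chr6 copy, and del-cIDR lies below WT at the chr13 copy and above it at chr2:88436964-88443085 and the chrX copy.

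The rises in KO were unevenly spread over the chromosomes, for the L1 copies as for all repeat loci. Chromosomes 6, 8 and 11 held 23, 12 and 9 of the 78 copies that were higher in KO, 44 together, and 6 of the copies that were lower, from 1249 tested copies. The other chromosomes held 34 higher and 138 lower among 8352. As percentages, 3.52% of the copies on chromosomes 6, 8 and 11 were higher, beside 7.50% of all tested loci there, and 0.407% of the copies elsewhere, beside 0.556% of all tested loci. On chromosomes 6, 8 and 11 the median of all tested repeat loci in KO was 0.37, 0.29 and 0.03, while the median L1 copy there was at 0.05, 0.04 and 0.03. Without chromosomes 4, 6, 8, 11 and X, 23 copies were higher and 108 lower, and of all tested loci 979 were higher and 6441 lower.

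The lengths of the longest copies fell on regular steps, and the difference in level between KO and WT varied with the step. Between 6500 and 7500 bp, the histogram of lengths had 10 peaks that alternate between a pair of ladders. Ladder 1 had peaks at 6558, 6765, 6973, 7185 and 7391 bp, a mean spacing of 208 bp. Ladder 2 had peaks at 6634, 6847, 7068, 7272 and 7484 bp, a mean spacing of 212 bp. Within 20 bp of a peak, 763 and 719 copies with reads belonged to ladders 1 and 2, of which 724 and 704 were tested. Both had a similar median level per kb, 19.2 in ladder 2 and 21.1 in ladder 1. Spacing of about this size is that of monomers at the 5′ end of mouse L1, whose number varies between copies and whose type differs between subfamilies, but which subfamilies these ladders are was not tested.

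In KO relative to WT the median copy of ladder 2 was at 0.21 on the log2 scale (25th to 75th percentile 0.09 to 0.30), with 582 of 704 copies above 0. The median copy of ladder 1 was at -0.15 (-0.24 to -0.06), with 131 of 724 above 0. Each of the 5 peaks of ladder 2 had a median between 0.19 and 0.22, and each of the 5 peaks of ladder 1 one between -0.16 and -0.13. These peaks and copies come from the same libraries, and a level may be shared among near-identical copies, so they are not independent. Ladder 2 lay above ladder 1 at each labelling time: its medians from 10 min up were -0.04, 0.25, 0.42 and 0.11, and those of ladder 1 were -0.41, -0.04, 0.09 and -0.21. In del-cIDR relative to WT both ladders were near each other, at -0.02 for ladder 2 and -0.07 for ladder 1.

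The same contrast could be read within each library, with no other library entering it. The median log2 level of ladder 2 minus that of ladder 1 ran from -0.04 to 0.13 in KO (median 0.12), from -0.37 to -0.12 in del-cIDR (median -0.21) and from -0.39 to -0.20 in WT (median -0.27), over 8 libraries each. All 8 KO libraries lay above all 16 others, while the del-cIDR and WT libraries overlapped. The means were 0.07 ± 0.08 in KO, -0.22 ± 0.09 in del-cIDR and -0.28 ± 0.07 in WT (SD, n = 8, over 4 labelling times). By labelling time, from 10 min up, libraries A and B gave -0.03 and 0.13, -0.04 and -0.02, 0.12 and 0.13, and 0.12 and 0.11 in KO. They gave -0.37 and -0.32, -0.27 and -0.27, -0.12 and -0.15, and -0.16 and -0.13 in del-cIDR, and -0.39 and -0.29, -0.35 and -0.33, -0.22 and -0.20, and -0.24 and -0.21 in WT. The KO pair was above both other pairs at each time, and in all 3 genotypes both libraries at 40 min were above both at 20 min. The 10 min libraries of del-cIDR, which are among the 5 with the fewest reads, were the lowest of that genotype.

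The difference between the ladders held in size under the settings that could move it, while the level of the ladders changed. The KO minus WT difference of ladder 2 relative to ladder 1 was 0.36, and 0.34 to 0.38 with each library left out in turn. It was 0.35 with a pseudocount of 5 and 0.36 at a mean level of at least 30. Without the 10 min libraries it was 0.34, and without KO 20 min B as well 0.33. Centring takes the same value from both ladders, and the limma prior does not enter the medians. Those settings, and leaving out a del-cIDR library, could not move this difference. On the spike-in scale both ladders were above 0 in KO, at 0.53 for ladder 2 and 0.17 for ladder 1. The sign of ladder 1 thus depends on the scale, while the distance of 0.36 is the same on both scales by construction. Single copies rarely passed in KO: 5 of the 704 tested copies of ladder 2 were higher and 4 lower. Of the 724 of ladder 1, 2 were higher and 6 lower. Of all tested loci 4.85% passed in KO, in either direction. Around the copies, other repeats within 25 kb had medians of 0.05 for ladder 2 and -0.08 for ladder 1. The ladders were looked for after values of these copies had been seen, so no test is given.

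**Figure D3:**
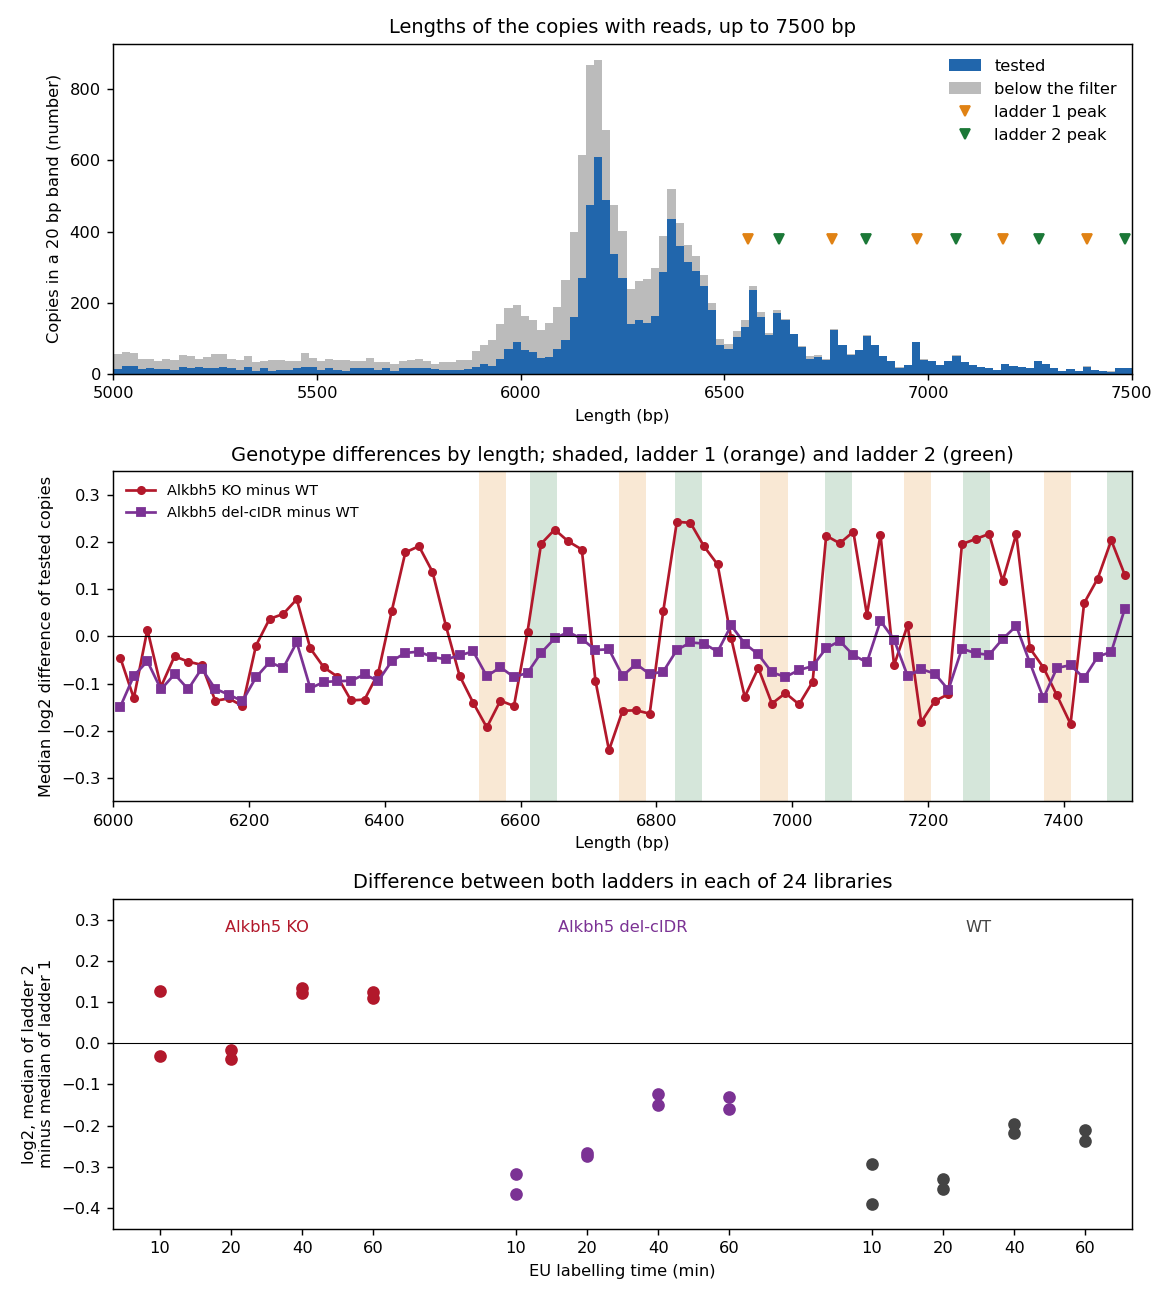
Top, number of L1 copies by length from 5000 to 7500 bp, with the peaks of ladders 1 and 2 marked. Middle, median log2 difference from WT of KO and of del-cIDR in bands of 20 bp of length, where KO lies below 0 at the peaks of ladder 1 and above 0 at those of ladder 2. Over all bands the KO medians lie between -0.24 and 0.24 and the del-cIDR medians between -0.15 and 0.06. Bottom, median log2 level of ladder 2 minus that of ladder 1 in each library, in which the 8 KO libraries (-0.04 to 0.13) lie above the del-cIDR (-0.37 to -0.12) and WT libraries (-0.39 to -0.20).

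In del-cIDR relative to WT, 26 copies were higher and 124 lower (limma adjusted p under 0.05), 1.56% of those tested, where 2.33% of all tested loci passed (0.638% higher, 1.69% lower). With no filter on low levels the percentages were 0.449 for the copies and 0.173 for all loci. By length, 4.43% of the copies of 5000 to under 6000 bp were called and 0.342% of those of 6500 bp or more, all 10 of the last lower. Among called copies, 68 fell and 11 rose beyond a factor of 2, of 9601 tested. Among all 306027 tested loci, 2619 fell and 747 rose that far.

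A large fall in del-cIDR was at chr13:80517790-80523503, a copy of 5713 bp. Its levels were 2.9 and 1.9, 12.8 and 12.1, 57.9 and 62.1, and 73.7 and 133 in del-cIDR at 10, 20, 40 and 60 min. In WT they were 33.6 and 32.1, 46.1 and 28.7, 289 and 403, and 614 and 750. The pairs did not overlap at any time, and the log2 difference was -2.67 ± 0.19 (limma adjusted p = 1.92e-06). KO was at -0.23 and did not pass. A copy nearby, chr13:80445733-80452035, had the deepest fall in del-cIDR, a log2 difference of -3.21 ± 0.38 (limma adjusted p = 0.000167), and repeats around the first copy were at -2.38.

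Further falls in del-cIDR lay at chr10:126035085-126041035 (log2 difference -2.31), JH584299.1:788403-793642 on an unplaced or unlocalised scaffold (-2.24), chr13:105826209-105832455 (-2.09), chrX:89730816-89736525 (-2.05), chr19:34117417-34122448 (-1.92) and chr17:20933307-20939599 (-1.82). At chr17:20933307-20939599 the levels spanned 1.9 to 40.5 with a median of 19 in del-cIDR, and 21.7 to 106 with a median of 43.8 in WT. None of these copies passed in KO, where the differences ran from 0.15 to 0.68.

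A pair of neighbouring copies on the X chromosome rose in del-cIDR. Over all tested loci of that chromosome the del-cIDR median was 0.20 and 7.66% were called, beside -0.02 and 2.33% over all tested loci. Its median tested L1 copy was at -0.05, with 5 copies higher and 3 lower. At chrX:17166907-17172802 the levels were 4.4 and 7.8, 66.2 and 63.0, 95.2 and 126, and 66.4 and 87.3 in del-cIDR. They were 4.0 and 0, 1.3 and 6.1, 8.8 and 22.7, and 22.7 and 18.3 in WT. The del-cIDR pair was above the WT pair at all 4 times, and the log2 difference was 2.43 ± 0.43 (limma adjusted p = 0.00547). The copy just beside it, chrX:17174802-17180198, was higher by 2.57 ± 0.40 (limma adjusted p = 0.00172), and repeats within 25 kb of the copies were at 1.91 and 1.60.

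At chr2:88436964-88443085 the del-cIDR levels were 10.3 and 16.6, 89.8 and 125, 148 and 139, and 62.8 and 103, against 9.5 and 7.2, 20.1 and 17.4, 30 and 28.6, and 17 and 22.9 in WT. The pairs were apart at every time, with a log2 difference of 1.65 ± 0.17 (limma adjusted p = 7.31e-05). KO was at -0.16 there. Repeats within 25 kb of the copy were at 1.60 in del-cIDR.

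The other rises in del-cIDR were 2.41 at chrY:744669-750714, 2.23 at chr5:68545457-68551926, 1.79 at chr11:6920421-6926505, 1.15 at chr11:13132975-13139135, 1.06 at chrX:56521048-56527392, 1.05 at chrX:99093270-99099441 and 1.02 at chr12:33511662-33517675 (log2 differences). The calls at chr11:6920421-6926505 and chr12:33511662-33517675 were lost when any of 10 and 12 of the 24 libraries was left out. The repeats around these 2 copies were at 0.02 and 0.04, and those around the others ran from 0.41 to 2.52.

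**Figure D4:**
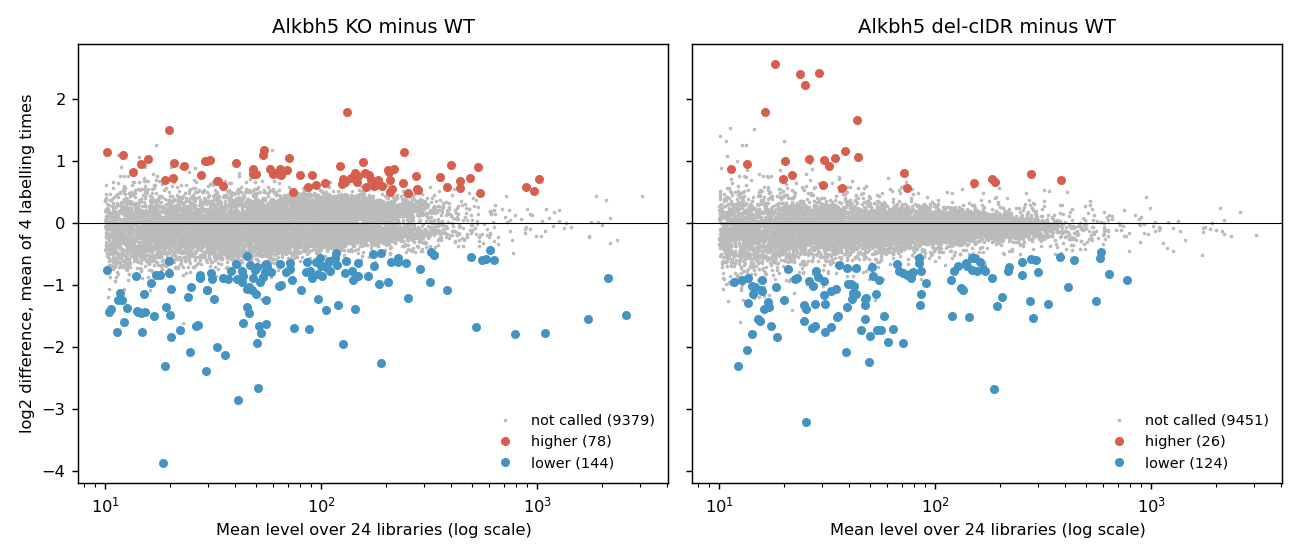
Log2 difference from WT against mean level (log axis) for the 9601 tested L1 copies, KO on the left and del-cIDR on the right, with copies called at an adjusted p under 0.05 in colour. In KO 78 called copies lie above 0 and 144 below, and in del-cIDR 26 lie above and 124 below.

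The comparisons of KO and of del-cIDR with WT share the WT libraries, so no overlap of their calls is given. Set directly against KO, del-cIDR was higher at 209 copies and lower at 302 (limma adjusted p under 0.05), 5.32% of those tested, where 12.5% of all tested loci passed (5.78% higher, 6.77% lower). This count rests on the 10 min libraries: without them 163 copies were higher and 1090 lower, 13.1% of those tested, beside 13.7% of all tested loci. Without KO 20 min B as well, 171 were higher and 539 lower, 7.40% beside 12%. With no filter on low levels it was 2.29% of the copies and 1.65% of all loci.

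For 119 of the 222 copies called in KO the call held with each of the 24 libraries left out in turn, 39 of them higher and 80 lower. For del-cIDR this was so for 91 of 150, 13 higher and 78 lower. Of the KO calls 214, and of the del-cIDR calls 141, kept a single direction from 10 to 60 min. A call rests on the mean over these same labelling times, so a single direction follows in part from the call. Neither count was made for all tested loci.

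The authors' deposited table gives each copy's ratio to 10 min. In it the median tested copy was at a log2 ratio of 0.38, 1.00 and 1.35 at 20, 40 and 60 min in KO, of 1.12, 1.94 and 1.86 in del-cIDR, and of 0.49, 1.42 and 1.67 in WT. The median of all tested loci in the same deposited table was at 0.37, 1.00 and 1.47 in KO, 2.37, 2.99 and 2.75 in del-cIDR, and 0.78, 1.83 and 1.90 in WT. In del-cIDR and in WT the median copy was below the median locus at each of these times. In KO it was near the median locus at 20 and 40 min and below it at 60 min. All ratios of a genotype share its 10 min libraries. Both of those of del-cIDR, and library B of KO and of WT, are among the 5 with the fewest reads.

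With labelling time, 363 copies gained faster and 709 slower than the median locus (limma slope per doubling of minutes, adjusted p under 0.05), 11.2% of those tested, while 25.3% of all tested loci passed (15.7% faster, 9.62% slower). This direction rests on the 10 min libraries: without them 620 copies were faster and 34 slower, and with a pseudocount of 5 there were 975 faster and 501 slower. No copy's genotype difference depended on labelling time at an adjusted p under 0.05 by limma's F test, and none of all tested loci did. At an unadjusted p under 0.05, 227 copies did in KO (2.36%, against 5.31% of all tested loci) and 657 in del-cIDR (6.84%, against 8.84%).

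Around most called copies, other repeats nearby differed in the same direction. Flanks were scored as the summed level of repeats other than L1 within 25 kb, where that reached 10. In KO, 112 of the 144 lower copies had such flanks, and the median copy was at -1.07 and the median flank at -0.89, with 108 flanks of the same sign and 82 beyond 0.5. Among the 78 higher copies 54 had flanks, at a median of 0.77 for the copy and 0.58 for the flank, with 49 of the same sign. In del-cIDR 96 lower copies were at -1.09 and their flanks at -0.95, with 92 of the same sign, and 25 higher copies were at 0.95 and their flanks at 0.52, with 24 of the same sign. Among the copies not called, 1813 of 3036 flanks had the sign of the copy in KO and 1834 of 3081 in del-cIDR.

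Across 3202 tested copies with flanks of that level, the log2 difference of copy and flank had a Pearson r of 0.42 in KO and 0.39 in del-cIDR, a description across loci that share the same libraries. Where the flanks differed by more than 1 in KO, 58 of 245 copies were called, and the 187 not called had a median of 0.14 along the sign of a flank that was itself at 1.24. In del-cIDR 51 of 240 were called, and the other 189 had 0.11 against flanks at 1.35. These copies were picked by large flank differences and by not being called, so their small medians follow in part from that choice. A tested copy had a median of 10.2 reads per kb, against 1.15 per kb in its flanks, and 7948 of 9376 copies were above their flanks. Tested copies had to reach a mean level of 10, while the loci of the flanks did not. This order follows in part from that filter.

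**Figure D5:**
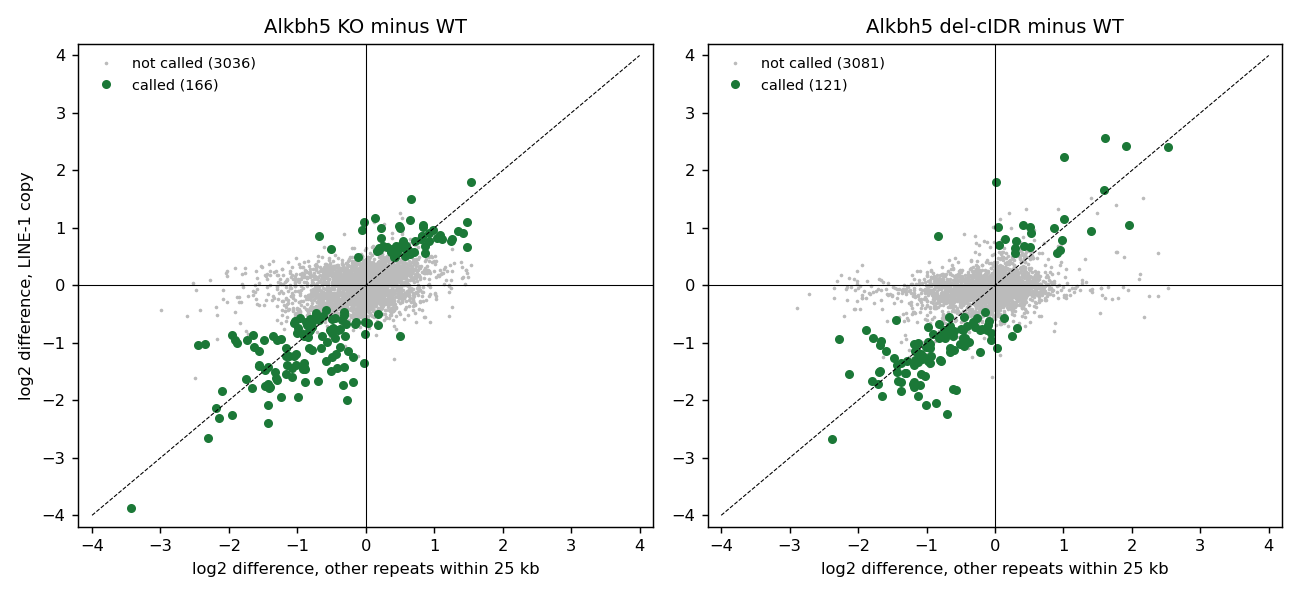
Log2 difference from WT of each L1 copy against that of the repeats other than L1 within 25 kb, KO on the left and del-cIDR on the right, with called copies in colour. Called copies lie mostly in the quadrants where copy and flank have the same sign, and many copies that were not called stay near 0 along the whole axis of the flank.

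Some called copies lay near each other, as called loci of all kinds did. In KO 46 of 222 called copies had another called copy of the same direction within 250 kb, and 5 had one of the opposite direction. In del-cIDR the counts were 25 and 2 of 150. A called copy of either direction lay within 250 kb of 22.1% of the copies called in KO and of 6.00% of the tested copies that were not called, and in del-cIDR the percentages were 18 and 4.58. Among all tested loci, which lie closer together, a called locus lay that near to 95.0% of the called and 74.5% of the others in KO, and to 88.1% and 68.0% in del-cIDR. These differences were not tested.

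Genes known to act on L1 or on the m6A of its RNA were examined as a list of 50, of which 47 were tested. In KO 9 rose and 15 fell (limma, p under 0.05 when adjusted over 22448 genes), beside 30.1% of all genes called. In del-cIDR 2 were higher and 19 lower, where 25.1% of all genes were called. The percentages of all genes cover both directions and are not matched for level, and the difference from them was not tested. The list medians were -0.07 in KO and -0.11 in del-cIDR, those of all genes -0.01 and -0.02. These directions depend on the scale: on the spike-in scale 10 were higher and 2 lower in KO, and 1 and 0 in del-cIDR.

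The listed genes with the largest changes in KO act in de novo DNA methylation. Dnmt3b, a de novo DNA methyltransferase, differed by -1.16 ± 0.05 (limma adjusted p = 4.06e-09), and Dnmt3l, its catalytically inactive cofactor, by -1.21 ± 0.08 (limma adjusted p = 1.95e-07), and both also passed on the spike-in scale. Dnmt3b had a median level of 416 in KO and 776 in WT. Dnmt3a, the other de novo methyltransferase, was higher by 0.38. In del-cIDR Dnmt3l was at -0.33 and Dnmt3b at -0.24.

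Among m6A genes, Fto, which removes m6A and acts on L1 RNA in mouse embryonic stem cells, was higher in KO by 0.46 ± 0.06 (limma adjusted p = 3.86e-05) and did not pass in del-cIDR (-0.06). Ythdc1 passed in neither, at -0.07 in KO and -0.03 in del-cIDR. The corepressor Trim28 and the H3 lysine 9 methyltransferase Setdb1 were lower in both genotypes, at -0.27 and -0.25 in KO and -0.31 and -0.24 in del-cIDR, and neither passed on the spike-in scale.

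Among genes of chromatin and RNA in KO, Ago2, an Argonaute protein, was lower (-0.43), as was Eed, a core subunit of a Polycomb complex (-0.39). Cbx3, a heterochromatin protein of the HP1 family, was higher by 0.43 and Atf7ip, a cofactor of SETDB1, by 0.39. In del-cIDR the chromatin remodeller gene Atrx was higher by 0.47. L1td1, which derives from the first open reading frame of L1, was lower there (-0.33), as were Atf7ip (-0.32), Uhrf1, a partner of DNMT1 (-0.29), and Hells, a chromatin remodeller that aids DNA methylation (-0.27). Of these, the rises in KO of Cbx3 and Atf7ip and the rise in del-cIDR of Atrx also passed on the spike-in scale.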

How the data were processed

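Nascent RNA of 24 libraries was captured by click chemistry after EU labelling, with Drosophila RNA as spike-in. Per the submitters' processing notes, reads were handled with HISAT2, SAMtools and Picard on build GRCm39. Not given in the sources used here are tool versions, the counter, strand use, the repeat annotation and how reads matching several copies were assigned. Per the file headers and values, the authors deposited log2 ratios: 20, 40 or 60 min over 10 min within a genotype, scaled to spike-in reads and with replicates combined. These values, 9 columns in all, were solved for whole reads, which were found for 100% of lines with a value other than 0 (largest relative error 3.77e-15). The first counts that returned the ratios within a narrow tolerance were taken. The error follows from that rule, so it does not show that these counts are the only ones possible. The recovery was also run on simulated data, with results not printed here. It returns the reads of each library, but not which replicate number it carries. For 24 tested copies, reads of a group could not be divided clearly between its libraries, and that group counted as 1 value. Among pairs of copy and library, 18040 held 2 reads and 10839 held 1, so mates may have been counted separately. No intervals are printed, as they would hold counting error alone.

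Levels are reads scaled to 11714 spike-in reads. log2(level + 1), a scale that understates changes of low loci, was set to each library's median tested locus and fitted with limma 3.58.1 in R 4.3.3. There was 1 coefficient for each of 12 groups. A genotype difference is the mean over 4 labelling times, and p-values were adjusted by Benjamini-Hochberg over all 306027 tested loci, or 22448 tested genes. The slope is per doubling of minutes. The members and lists were chosen with earlier results of these data known. Named copies are those with the 10 largest rises and falls per comparison that passed and had 1 sign at all 4 times, and the 5 with most reads per kb. Named genes are up to 8 listed genes per comparison by size of change, plus Alkbh5, Fto, Ythdc1, Trim28 and Setdb1. Dnmt3a was added after its value was seen. Tasor, Tasor2 and Trex1 of the gene list were not analysed here. Alternatives were other scales, pseudocounts, filters and priors, and leaving out libraries, the 10 min time or chromosomes. Sequence features and host genes of the copies, which were planned, were not analysed here because no genome or annotation of GRCm39 was used.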

Additional observations from a re-analysis of the deposited data

Results flagged for a closer look

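The share of repeat reads in the L1 copies of del-cIDR relative to WT changed direction with labelling time. The log2 difference was 0.369 at 10 min, where both del-cIDR libraries (9.74 and 9.55%) lay above both WT libraries (5.91 and 9.44%), and -0.321 at 20 min, where both del-cIDR libraries (5.19 and 4.77%) lay below both WT libraries (5.88 and 6.57%). It was -0.0746 at 40 min and -0.137 at 60 min. The difference between the times was not tested. Of the 4 libraries at 10 min, del-cIDR A and B and WT B are among the 5 with the fewest repeat reads, and the part of this in the share was not tested.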

How the results depend on the processing

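Main counts are of copies with an adjusted p under 0.05, as higher and lower in parentheses. For KO relative to WT the count of 222 became 344 (167, 177) with a pseudocount of 5, 483 (195, 288) with an intensity trend in limma, 374 (159, 215) at a mean level of at least 30, 131 (23, 108) without chromosomes 4, 6, 8, 11 and X, and 22 (3, 19) with no filter on low levels. It was 273 on the spike-in scale (227, 46) and 125 (52, 73) relative to the median L1 copy, 119 of them shared with the 222. For del-cIDR relative to WT the count of 150 became 67 (21, 46) on the spike-in scale, 230 (49, 181) with a pseudocount of 5, 285 (64, 221) with the trend, 68 (14, 54) relative to the median L1 copy and 66 (4, 62) with no filter. Without the 10 min libraries and KO 20 min B it was 253 (46, 207). For del-cIDR relative to KO the count of 511 became 825 (225, 600) with a pseudocount of 5, 902 (319, 583) with the trend, 1253 (163, 1090) without the 10 min libraries, 278 (130, 148) without chromosomes 4, 6, 8, 11 and X and 337 (35, 302) with no filter. The slope count of 1072 became 2096 (262, 1834) relative to the median gene and 654 (620, 34) without 10 min. On the spike-in scale 12 listed genes passed in KO and 1 in del-cIDR. In the 3 genotype comparisons the percentage of copies called was below that of all loci under all 11 other settings that kept a filter on levels and with each of the 24 libraries left out, and above it with no filter. Where loci or libraries were left out, fewer enter by construction, and for the other settings the cause was not tested.

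With each library left out in turn, the KO count ran from 138 to 359, the del-cIDR count from 97 to 224, del-cIDR relative to KO from 371 to 595 and the slope count from 576 to 2451. For KO the count was 359 without WT 10 min A, and 147, 142, 146, 138 and 143 without KO 60 min A, KO 60 min B, WT 40 min A, WT 60 min A and WT 60 min B. For del-cIDR it was 97 without WT 60 min A. For the slope it was 2451 without WT 10 min A, 576 without WT 10 min B, 599 without KO 10 min B, 712 without KO 60 min A, 698 without del-cIDR 60 min A and 714 without WT 60 min B. The log2 difference of the summed level ran from 0.22 to 0.44 in KO and from 0.02 to 0.18 in del-cIDR, and the distance between the ladders in del-cIDR from 0.04 to 0.06. The 40 results for named copies kept their call on the spike-in scale and with a pseudocount of 5. Without the 10 min libraries 4 were lost, and with libraries left out 38 of 960 values, all of 3 copies. The settings relative to the median L1 copy and without KO 20 min B, and all those for the ladders, were chosen after seeing the data. No paired analysis was possible because the deposited columns carry no replicate numbers. Depth limits copies at low levels, of which 5092 were not tested.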
